A study of Homo sapiens with 18 samples.

Results

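The vehicle tumours were OCI-Ly18 tumours, a long-established line of human diffuse large B-cell lymphoma, tagged with green fluorescent protein and grown under the skin of NSG mice, a strain that lacks its own B, T and NK cells. They were taken by group label, 9 of the 18 libraries of the series, 3 libraries (A, B and C) from each of the mice M_766, M_769 and M_770. These mice received vehicle for 14 days from day 3 after implantation and then CART19 cells, human T cells engineered with a chimeric antigen receptor. Tumours were dissected 11 days after the infusion, dissociated, and sorted for fluorescent cells, so the RNA is that of sorted tumour cells that had been exposed to CART19 cells in all 3 mice. A group of tumours without any T-cell infusion was not analysed here, so "baseline" means without drug, not without CART19. The labels give no sex or age of the mice and do not say what the library letters mean. Counts of the 3 libraries from 1 mouse were added together, so n = 3 tumours below. All tumours descend from 1 cell line, so their spread is not that of lymphomas of different patients.

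Diffuse large B-cell lymphoma arises from mature B cells that have passed through, or are passing through, the germinal center, where B cells mutate their antibody genes and are selected. Germinal-center-like tumours express BCL6 and MME (CD10), whereas activated tumours express IRF4 and NF-kB targets. A mature B-cell clone normally transcribes a single productive heavy chain and a single light chain.

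Each library held 17676638 to 24935347 counts and each tumour sum 55712115 to 66053406. Libraries of the same tumour correlated across genes at a mean Spearman coefficient of 0.993 (9 pairs), and libraries of different tumours at 0.986 (27 pairs). Genes are compared with each other in TPM, counts divided by gene length and scaled to the same total in each tumour. Tumours are compared in CPM, library counts set to 1 common total and scaled with TMM factors. The scales can order the tumours differently: CD74 was at 3138, 3228 and 3369 TPM in M_766, M_769 and M_770, but at 3329, 3087 and 3290 CPM. Sets of 3 numbers below are always in that order of tumours. In all 3 tumours 16093 of 58735 genes reached 1 TPM, among them 11312 of 19951 protein-coding genes, while 24454 genes had no count in any of the 9 libraries.

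The leading constant genes were mu for the heavy chain and lambda for the light chain, and whether either chain was productive was not tested. IGHM, the mu constant gene on chromosome 14 (chr14:105851705-105856218), was at 12652, 11328 and 10830 TPM, and IGLC7, a lambda constant gene on chromosome 22 (chr22:22922594-22923034), at 17512, 14761 and 13773 TPM. IGKC, the kappa constant gene, had no count in any tumour, which allows up to 0.0454, 0.0522 and 0.0538 CPM (3 counts, counting error alone). IGLC1 and IGLC2 were also at 0 counts, and IGLC3 had 17, 3 and 13 counts. IGLC6, annotated as a pseudogene, had 12433, 9024 and 10720 counts. How reads were shared among similar lambda constant genes was not tested, so their split is uncertain. Of the counts on lambda variable segments, IGLV6-57 took 64.8%, 65.9% and 66.0%, and IGLV5-52 took 34.3%, 33.2% and 32.7%. The same pair of segments thus led in each tumour, in shares that differed by less than 2 percentage points. On the heavy chain, the segment with most variable-region counts was IGHV5-78, annotated as a pseudogene, with 67.5%, 60.8% and 60.4%, and IGHV3-72 followed with 8.57%, 10.9% and 10.5%. Heavy variable segments together had 8318, 6968 and 6208 counts, against 512726, 372373 and 343896 on IGHM.

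The lambda variable segment with most counts and the joining segment next to IGLC7 are shown for their germline letters. IGLV5-52, the next variable segment, is not printed, and which segments are joined in the expressed light chain was not tested. Both are the annotated genome sequence of GENCODE release 29 on the plus strand of chromosome 22, not reads from the tumours. IGLV6-57 lies at chr22:22195799-22196276 and the last 300 bases of its transcript are printed. IGLJ7, the joining segment upstream of IGLC7, lies at chr22:22921390-22921435, had 190, 154 and 201 counts, and is printed whole.
IGLV6-57: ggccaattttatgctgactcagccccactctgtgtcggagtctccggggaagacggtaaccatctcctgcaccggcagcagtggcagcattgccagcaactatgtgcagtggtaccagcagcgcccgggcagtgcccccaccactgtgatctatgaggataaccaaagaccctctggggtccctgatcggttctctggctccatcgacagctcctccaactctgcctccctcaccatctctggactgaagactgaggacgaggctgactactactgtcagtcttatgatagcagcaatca
IGLJ7: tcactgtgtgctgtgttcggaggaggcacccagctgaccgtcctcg

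The other heavy-chain constant genes were detected at lower levels. IGHG4 averaged 805 ± 35.7 TPM (SD, n = 3), IGHA1 at 492, 449 and 480 TPM, IGHA2 at 447, 395 and 420 TPM, and IGHD at 164, 146 and 134 TPM. The constant genes of 1 class are near-identical to each other, so their split is uncertain. IGHE, the epsilon gene, was at 11.8, 13.0 and 24.1 TPM, with M_770 apart from the other 2 tumours.

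**Figure D1:**
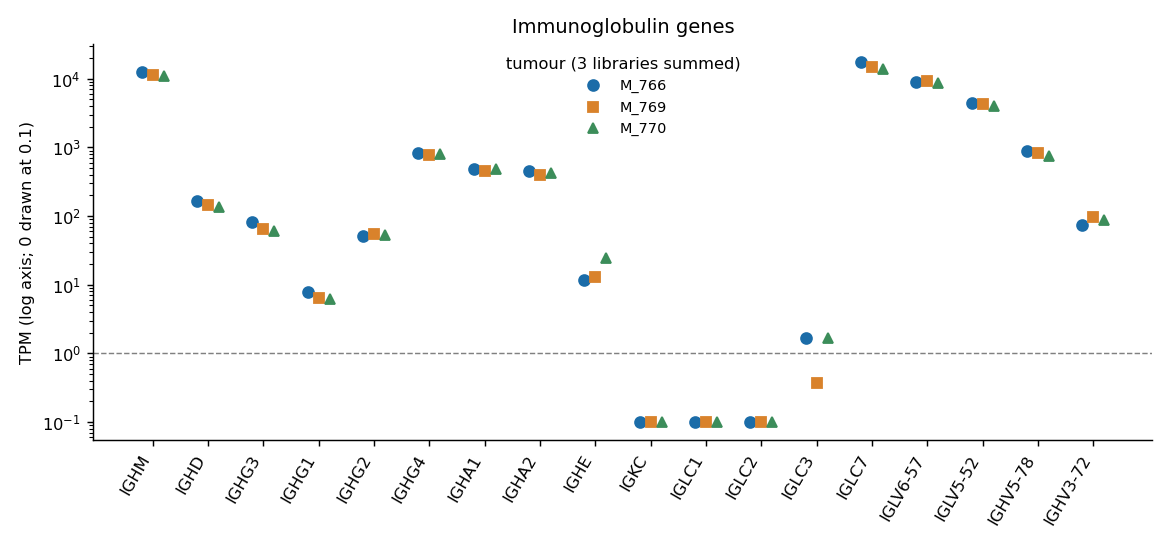
TPM of immunoglobulin constant genes and of the leading variable segments (log axis, values of 0 drawn at 0.1), 1 point per tumour with its 3 libraries summed. IGHM, IGLC7 and IGLV6-57 stood at 8563 TPM or more in each tumour while IGKC, IGLC1 and IGLC2 were at 0.

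The most abundant transcripts per length came from the mitochondrial genome. MT-CO3 and MT-CO1, subunits of cytochrome c oxidase, averaged 26617 ± 1434 and 25093 ± 1258 TPM (SD, n = 3). The 13 mitochondrial protein-coding genes took 4.37%, 4.19% and 4.52% of counts, and the 86 cytosolic ribosomal protein genes 13.4%, 10.5% and 9.30%, highest in M_766. Immunoglobulin genes and pseudogenes took 1.37%, 1.15% and 1.10%. EEF1A1, the translation elongation factor that delivers tRNAs, averaged 6510 ± 296 TPM, and HLA-DRA, the alpha chain of the MHC class II molecule HLA-DR, 4584 ± 127 TPM. The 100 highest genes by count took 25.9%, 22.8% and 22.5%, and 673, 793 and 785 genes together held 50% of the counts. RPS28P7, a ribosomal protein pseudogene of 210 bases, was listed at 8202 TPM, but reads of such a gene cannot be told from those of its parent.

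Every one of the 30 B-lineage genes reached 1 TPM in all 3 tumours, and 18 reached 100 TPM, with a median of 140 TPM. The B-cell receptor partners CD79B and CD79A were at 2080, 1550 and 1483 TPM and at 601, 573 and 609 TPM. MS4A1, which encodes CD20, was at 153, 208 and 261 TPM, and CD22, an inhibitory co-receptor, stood at 122, 116 and 132 TPM. Among the transcription factors, PAX5, which fixes B-cell identity, was at 176, 202 and 215 TPM, POU2AF1, the octamer coactivator, at 303, 335 and 338 TPM, and EBF1 at 53.1, 55.6 and 46.4 TPM. The lowest B-lineage genes were CR2, the complement receptor CD21 (1.64, 2.57 and 2.28 TPM), and CD180 (2.26, 2.83 and 4.34 TPM).

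Germinal-center genes were expressed with 2 exceptions. Of 30 listed, 28 reached 1 TPM in all tumours. CXCR4, the chemokine receptor of dark-zone cells, led with 863, 928 and 776 TPM. BCL6, the germinal-center repressor, was at 39.5, 58.5 and 65.4 TPM, MME at 45.2, 62.4 and 57.8 TPM, S1PR2, which confines cells to the follicle, at 83.7, 87.5 and 77.7 TPM, and BACH2 at 109, 138 and 135 TPM. LMO2, widely used as a germinal-center marker, was at 0.386, 0.201 and 0.455 TPM, and SERPINA9 at 0.0180, 0 and 0.0460 TPM.

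Markers of activated B cells and plasma cells were mixed: 21 of 25 reached 1 TPM in all tumours, with a median of 9.48 TPM. IRF4 was at 52.4, 66.2 and 46.3 TPM, XBP1, the secretory-program regulator, at 105, 114 and 141 TPM, MZB1, a chaperone of IgM assembly, at 470, 394 and 411 TPM, and JCHAIN, which joins IgM units, at 107, 152 and 230 TPM. PRDM1, the master regulator of plasma cells, was low, at 2.34, 2.18 and 2.18 TPM, and SLAMF7 reached at most 0.0244 TPM. SDC1 (CD138) was at 24.1, 24.3 and 12.7 TPM.

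Of 20 surface proteins that antibodies or engineered T cells are directed at, 17 reached 1 TPM in all tumours. After CD74 and CD79B the highest were CD79A, CD52 (507, 385 and 372 TPM) and CD37 (256, 267 and 312 TPM). TNFRSF13C, the receptor for BAFF, was at 22.2, 20.6 and 17.4 TPM, TNFRSF17, which encodes BCMA, at 36.1, 37.2 and 20.8 TPM, and ROR1 at 18.7, 21.4 and 18.2 TPM. TNFRSF8 (CD30), SLAMF7 and CD80 stayed below 1 TPM in each tumour. CD58, the ligand of the T-cell receptor partner CD2, was at 10.4, 9.64 and 8.86 TPM, and the death receptor FAS at 9.26, 11.6 and 11.0 TPM.

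Among 34 lymphoma oncogenes, MYC stood first in level, at 1118, 1266 and 1325 TPM, 91st of all genes by mean TPM. TCF3, an E protein that drives germinal-center genes, followed with 560, 602 and 592 TPM, then TCL1A, an AKT coactivator, with 601, 515 and 478 TPM. The apoptosis inhibitors BCL2 and MCL1 were at 208, 295 and 299 TPM and at 126, 205 and 237 TPM, and BCL2L1 at 94.1, 77.4 and 69.6 TPM. Of the D cyclins, CCND3 was at 192, 191 and 195 TPM, while CCND1 and CCND2 remained below 1 TPM in each tumour, as did NOTCH1, with at most 0.0170 TPM. EZH2, the histone methyltransferase of the Polycomb complex, averaged 146 ± 4.05 TPM.

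Of 37 lymphoma tumour suppressors, 36 reached 1 TPM in all tumours, the exception being SGK1 (0.462, 1.04 and 1.30 TPM). CDKN2A, the locus of p16 and p14ARF, was at 90.5, 80.4 and 61.7 TPM, and B2M, the light chain of MHC class I, at 663, 627 and 685 TPM. ID3, an inhibitor of E proteins, was at 336, 369 and 366 TPM. Transcript levels say nothing of mutations, and none were examined.

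Most genes of antigen presentation, proliferation and metabolism reached 1 TPM in all tumours. All 21 MHC class I presentation genes reached 10 TPM, led by HLA-B (997, 965 and 1008 TPM) and HLA-E (795, 843 and 833 TPM). In the class II list 18 of 20 reached 1 TPM, and HLA-DQA2 and HLA-DQB2 did not. All 30 replication genes and all 30 mitosis genes reached 1 TPM, with medians of 108 and 69.0 TPM, PCNA at 869, 826 and 795 TPM and MKI67 at 151, 252 and 234 TPM. In the hypoxia and glycolysis list 28 of 29 genes reached 1 TPM, with a median of 54.9 TPM, and in that of cholesterol and fatty acid synthesis 29 of 30, with a median of 46.2 TPM. The glycolytic enzymes GAPDH and ENO1 averaged 3060 ± 195 and 1519 ± 163 TPM. Nucleolar genes linked to MYC were led by NPM1 at 1113, 1086 and 1196 TPM. HLA genes are polymorphic and similar to each other, so reads may be split or lost among them.

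**Figure D2:**
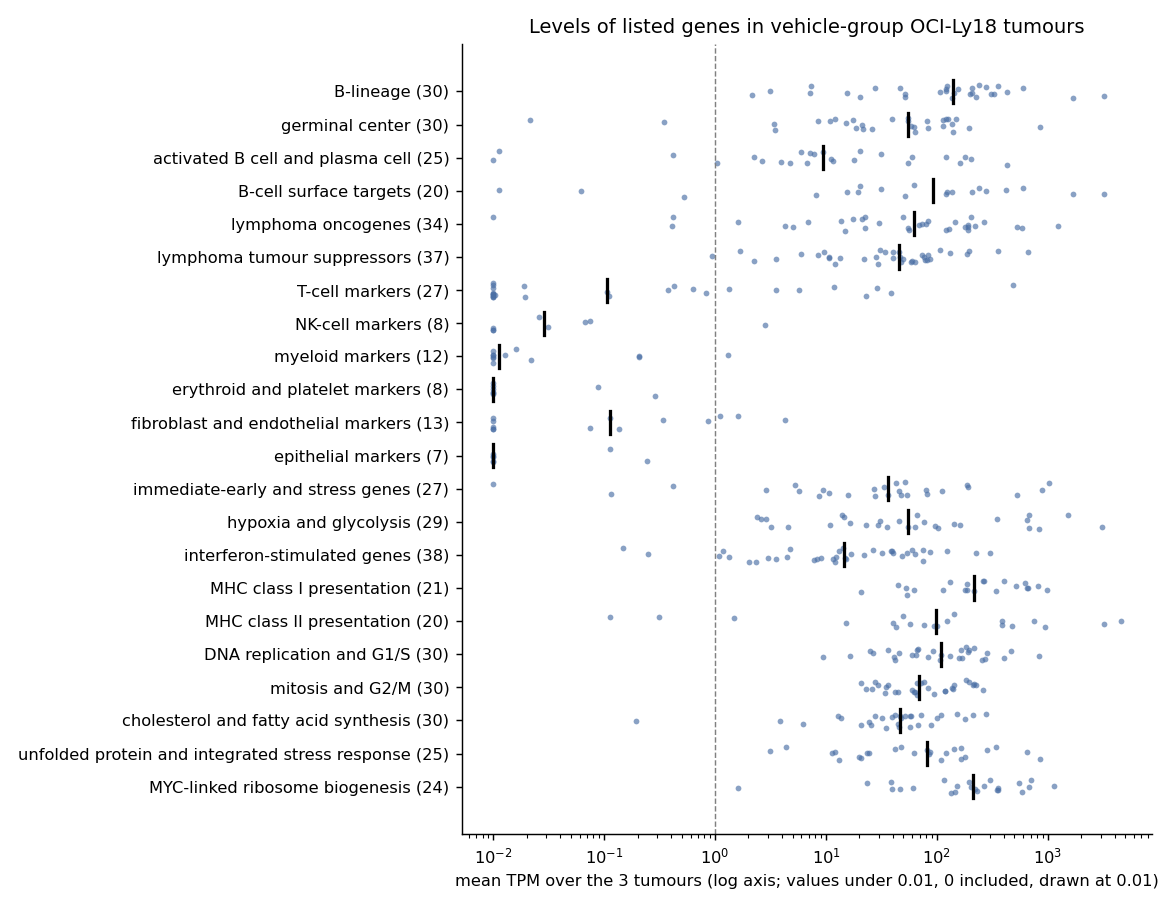
Mean TPM over the 3 tumours of each gene in the lists (log axis, values under 0.01 drawn at 0.01), with the number of genes in brackets, a black bar at the list's median and a dashed line at 1 TPM. B-lineage genes lay between 2.17 and 3245 TPM, and the medians of the 6 lists of other cell types were at or below 0.112 TPM.

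Most markers of other cell types were below 1 TPM, with exceptions among T-cell genes. Of the T-cell list, 18 of 27 genes were below 1 TPM in all tumours. CD2, CD3D, CD3G, CD7, GZMA, GZMB, GZMK and CTLA4 had no count in any library. The 27 genes together had 16047, 12118 and 12243 counts. A part of 11 genes picked from the list, CD2, CD3D, CD3E, CD3G, CD4, CD7, CD8B, CD28, GZMA, GZMB and GZMK, had 6, 7 and 12 counts in all. CD8A, the other CD8 chain, had 100, 93 and 77 counts and was above 1 TPM in each tumour. Other genes of the list were expressed: TRBC2, a T-cell receptor constant gene, at 544, 461 and 444 TPM, TRAC at 39.4, 31.1 and 44.6 TPM, CD247 (CD3 zeta) at 25.6, 26.5 and 34.9 TPM, ZAP70 at 22.4, 22.6 and 24.3 TPM and LCK at 11.5, 14.1 and 10.1 TPM. PRF1, which encodes perforin, was at 4.28, 6.15 and 6.70 TPM, and IL2RA at 3.23, 3.35 and 4.10 TPM. Erythroid and platelet genes had 13, 14 and 13 counts in sum, NK-cell genes 813, 716 and 559, nearly all on NCAM1 (801, 694 and 548 counts), myeloid genes 76, 82 and 73, and epithelial genes 30, 31 and 28. CD68, a macrophage marker, had no count, but 85.8% of its exonic bases are shared with other annotated genes. Fibroblast and endothelial genes summed to 1000, 1228 and 1219 counts, mostly in genes such as TAGLN (3.24, 4.97 and 4.71 TPM) and FN1 (1.27, 1.89 and 1.69 TPM), with COL3A1, LUM and CDH5 at 0. In bulk RNA, fewer cells of a type and less RNA per cell cannot be told apart.

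The tumours differed from each other by small amounts in many genes. Across the 9 libraries, with the tumour as the factor, 9184 of 16949 tested genes (54.2%) differed between the 3 tumours at an adjusted p under 0.05 by edgeR's quasi-likelihood test. That test sets tumours against the spread between libraries of 1 tumour, which may be technical, so it speaks of these 3 tumours and not of vehicle tumours in general. The median SD of log2 CPM between tumours, taken on the summed counts, was 0.19, against 0.12 between single libraries of a tumour. Summing lowers the noise in the first, so these SDs are not on a like basis. Between tumours, 90% of genes had an SD of at most 0.47. A range of 2-fold or more between the highest and the lowest tumour was seen in 1283 genes (7.57%), and of 4-fold or more in 90. M_766 stood farthest apart: 4290 genes (25.3%) were higher and 4068 (24.0%) lower there than in the mean of the other 2 tumours. For M_770 the counts were 3321 (19.6%) and 3248 (19.2%), and for M_769 1993 (11.8%) and 1866 (11.0%), which fell to 1289 and 1073 without library A of M_769 and to 1296 and 1093 without its library C. Without M_766, 3698 genes differed between the remaining tumours. M_769 lay between the other 2 in 840 of the 1283 genes with a 2-fold range.

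Gene length moved with the tumour. In M_766 minus the mean of the others, the median log2 difference fell from 0.19 in the shortest 25% of genes (up to 2233 bases) to 0.12, -0.01 and -0.15 over the next bins of 25%, the last holding genes over 6789 bases. In M_770 it ran from -0.11 to 0.08, the other way. GC content moved less, with medians of -0.06 to 0.13 over 4 equal bins of GC in M_766. Correcting each library for length and GC, an alternative added after seeing the data, gave 8882 genes that differed between tumours, of which 7600 were among the 9184 without the correction. Of the 4290 genes higher in M_766, 2942 were also higher there with the correction. The part of length and GC in the differences was not tested beyond this. Corrected values stand beside some of the results that the correction moves, not all.

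**Figure D3:**
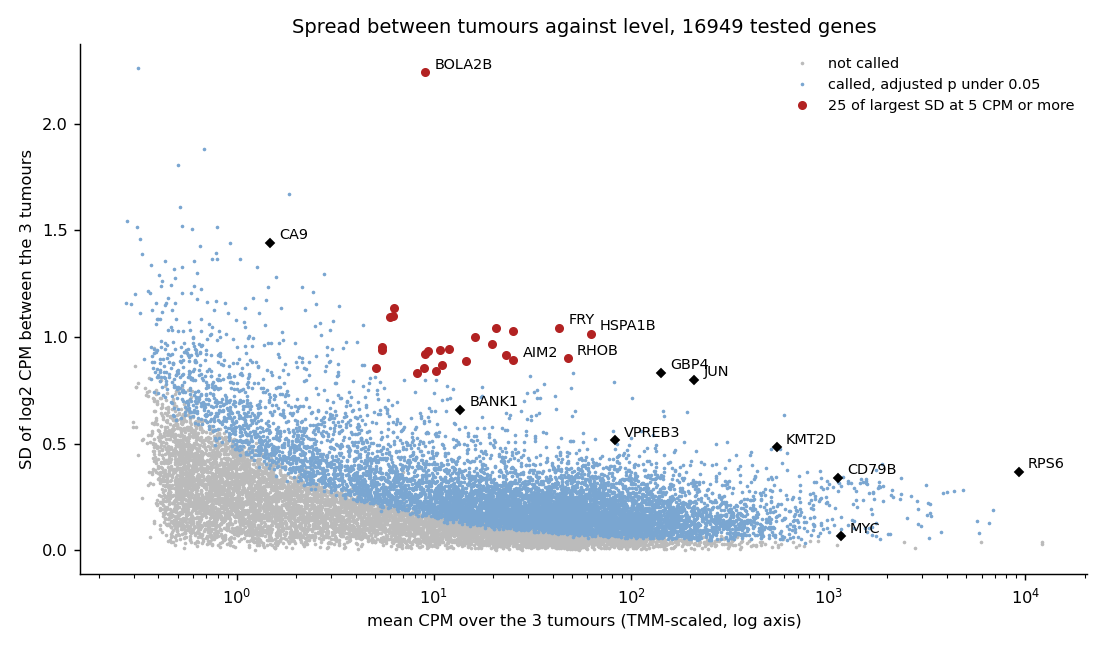
SD of log2 CPM between the 3 tumours against mean CPM (log axis) for 16949 tested genes, blue where the tumours differed at an adjusted p under 0.05 and grey where not, with the 25 genes of largest SD at 5 CPM or more in red and a few named genes as black diamonds. MYC lay low, at an SD of 0.07, and GBP4 and JUN stood at 0.83 and 0.80.

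B-lineage genes differed often but little between tumours. Of 30 tested, 27 passed the test, against 54.2% of all tested genes, with a median SD of 0.18, close to the 0.19 of all tested genes, and 1 (BANK1) had a 2-fold range. Among lists with at least 10 tested genes, the share that passed ran from 4 of 10 (T-cell markers) to 18 of 18 (MHC class II presentation). Such shares were not matched for expression level. MS4A1 was at 249, 304 and 389 CPM and was lowest in M_766 in each library (adjusted p = 5.3e-13). CD79B, at 1441, 969 and 946 CPM, was higher in M_766 by 0.62 on the log2 scale (SE 0.031), and by 0.35 with length and GC corrected. Genes named for their large SD within a list, such as VPREB3, are described without a test of their own. VPREB3, a relative of the surrogate light chain gene VPREB1, was at 119, 67.6 and 61.5 CPM, an excess of 0.91 in M_766, and of 0.73 after the correction. CD79A reversed: M_766 was higher by 0.19 (adjusted p = 0.00015), and its difference was -0.09 (adjusted p = 0.0048) once corrected. BANK1, a B-cell receptor adaptor, was at 9.34, 10.1 and 21.4 CPM, with M_770 above both others. POU2AF1, SYK, the kinase of the B-cell receptor (568, 567 and 587 CPM), and CR2 did not pass the test. Over the libraries POU2AF1 ran from 732 to 772 CPM, with all 3 tumours overlapping.

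In the germinal-center list 22 of 28 tested genes passed the test, against 54.2% of all. The list moved in both directions. In M_766 13 were lower and 7 higher, against 24.0% and 25.3% of all tested genes. In M_770 11 were higher and 8 lower, against 19.6% and 19.2%. MEF2C, a transcription factor of germinal-center B cells, was at 8.26, 11.4 and 18.7 CPM. BCL6 was at 78.1, 104 and 119 CPM and IRF8 at 149, 170 and 232 CPM, both lowest in M_766 and highest in M_770. Among plasma-cell genes JCHAIN followed the same order (59.9, 76.9 and 118 CPM), while SDC1 (28.9, 26.2 and 14.0 CPM), TNFRSF17 (13.4, 12.5 and 7.14 CPM) and IRF4 (103, 117 and 83.8 CPM) were lowest in M_770. Members of that list therefore moved in both directions.

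Oncogenes were more often lower than higher in M_766. Of 33 tested, 25 passed the test, against 54.2% of all tested genes. In M_766 19 were lower and 5 higher, against 24.0% and 25.3% of all tested genes. With length and GC corrected the split was 17 lower and 6 higher. REL, an NF-kB subunit, was at 7.75, 24.2 and 29.7 CPM, a log2 difference of -1.77 in M_766. Libraries of M_766 reached 8.30 CPM where the lowest elsewhere was 20.5. REL ranked 6th by SD among genes at 5 CPM or more, which makes such separation likely. MCL1 was at 184, 269 and 317 CPM, and BCL2 at 816, 1043 and 1080 CPM. MYC was at 1118, 1142 and 1220 CPM. Its adjusted p was 0.020, and it was 0.056 and 0.065 when the second or the third library of M_770 was left out. TCF3, CDK4, MAX and TFAP4 did not pass the test. EZH2 was at 216, 204 and 199 CPM (adjusted p = 0.0064), and lost its call, at 0.065 and 0.062, without the second library of M_766 or the first of M_770.

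Tumour suppressors were more often lower than higher in M_766. KMT2D, a histone H3K4 methyltransferase, was at 363, 597 and 686 CPM, a log2 difference of -0.80 in M_766 that became -0.56 with length and GC corrected. EP300 (82.0, 122 and 141 CPM), ARID1A (168, 232 and 274 CPM) and TET2 (13.2, 19.2 and 21.9 CPM) followed the same order, with differences of -0.65, -0.56 and -0.62 that became -0.41, -0.33 and -0.33. These 4 are long genes, picked from the list with their values seen. CDKN2A and CDKN1A, inhibitors of the cell cycle, ran the other way, at 130, 105 and 81.9 CPM and at 53.0, 50.1 and 30.9 CPM. Over the list 26 of 37 passed the test (54.2% of all tested genes), with 19 lower (24.0% of all) and 8 higher (25.3% of all) in M_766. The share higher is near that of all genes. With length and GC corrected, 20 were lower and 11 higher in M_766, against 3949 and 3777 of all 16949 tested genes.

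Ribosomal protein genes differed most uniformly. Of 82 tested, 77 were higher in M_766 and none was lower, 76 were lower in M_770, and 65 were lower in M_769 than in the mean of the others. Over all tested genes these shares were 25.3% higher and 24.0% lower in M_766, 19.2% lower in M_770 and 11.0% lower in M_769. Their median log2 difference in M_766 was 0.48, against 0.02 over all tested genes, and 0.38 with length and GC corrected, again with 77 higher. RPS6, of the small subunit, was at 11720, 9012 and 7035 CPM. Mean log2 CPM of the list was 9.89 to 9.92 in libraries of M_766, 9.47 to 9.58 in M_769 and 9.39 to 9.40 in M_770. These genes are short and have many processed pseudogenes, so part of their counts is uncertain.

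Immediate-early and stress genes showed the reverse. Of 25 tested, 22 passed, 19 were lower in M_766 and 2 higher, and 9 had a 2-fold range. Over all tested genes 54.2% passed, 24.0% were lower and 25.3% higher in M_766, and 7.57% had such a range. Their median SD was 0.33 and the median difference of M_766 was -0.52, or -0.64 with length and GC corrected. JUN, a subunit of AP-1, was at 102, 237 and 290 CPM, with libraries at 94.6 to 107 in M_766 and at 228 to 299 elsewhere. JUN ranked 30th by SD among genes at 5 CPM or more, which makes such separation likely. FOS (17.9, 48.8 and 41.9 CPM), KLF6 (53.7, 114 and 137 CPM) and HSPA1B, an inducible HSP70 (24.2, 84.4 and 79.3 CPM), were likewise lowest in M_766. The heat shock proteins HSPA8 and HSP90AA1, at 1147, 1340 and 1546 CPM and at 1403, 1631 and 2031 CPM, were also lowest in M_766, by smaller ratios. JUND and ATF3 were the 2 genes higher in M_766 than in the mean of the other 2 tumours. Of these only JUND was highest there. JUND was at 361, 325 and 238 CPM, though its excess in M_766 went from 0.40 to 0.02 with the correction and lost its call (adjusted p = 0.71).

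Hypoxia, lipid and secretory-pathway genes were more often higher than lower in M_770. In the hypoxia and glycolysis list 19 of 29 tested genes were higher in M_770 and 1 lower, against 19.6% and 19.2% of all genes. PFKFB4, an activator of glycolysis, was at 21.2, 24.0 and 47.7 CPM, ADM at 17.4, 32.6 and 39.3 CPM, and CA9, a hypoxia-induced carbonic anhydrase, at 0.446, 0.735 and 3.23 CPM. Of 29 genes of cholesterol and fatty acid synthesis 12 were higher and 3 lower in M_770. FASN, the fatty acid synthase, was at 454, 562 and 848 CPM and differed most in that list. Of 25 genes of the unfolded protein and integrated stress response 12 were higher and 7 lower there. The chaperone HSPA5 was at 323, 366 and 548 CPM while TRIB3 (123, 82.6 and 76.7 CPM) and ATF4 (751, 647 and 605 CPM) were highest in M_766. MHC class I presentation genes were higher in M_770 in 13 of 21 and lower in none (20 and 0 with length and GC corrected), with TAP1, the peptide transporter, at 394, 508 and 633 CPM. Replication genes had a median SD of 0.09, against 0.19 over all tested genes, and none had a 2-fold range.

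**Figure D4:**
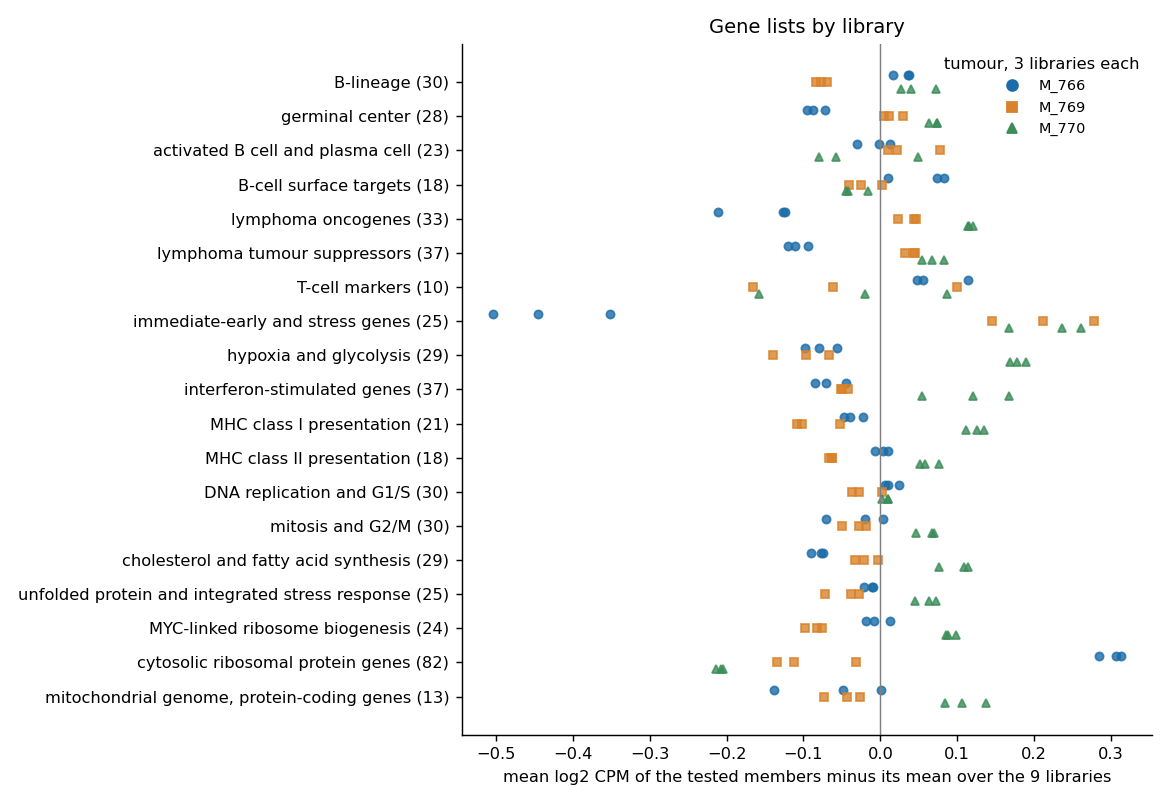
Mean log2 CPM of the tested members of each list in each library, minus its mean over the 9 libraries, with 3 points per tumour and the number of tested genes in brackets. The stress list of M_766 lay at 4.62 to 4.77 before centring against 5.27 to 5.40 in the other tumours, and ribosomal protein genes lay at 9.89 to 9.92 against 9.39 to 9.58.

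Interferon-stimulated genes differed in both directions. Of 37 tested, 27 passed the test, 13 were higher and 14 lower in M_766, and 13 were higher and 7 lower in M_770. Over all tested genes 54.2% passed, 25.3% were higher and 24.0% lower in M_766, and 19.6% and 19.2% in M_770, so the 7 lower in M_770 are at the share of all genes. The guanylate-binding proteins, induced by interferon gamma, were highest in M_770: GBP1 at 116, 175 and 285 CPM, GBP2 at 16.3, 27.1 and 45.3 CPM, and GBP4 at 71.1, 130 and 225 CPM. GBP4 libraries lay at 67.1 to 74.6 in M_766, 126 to 132 in M_769 and 216 to 228 in M_770. GBP4 ranked 27th by SD among genes at 5 CPM or more, which makes such separation likely. Its log2 difference in M_770 was 1.22, and 1.18 after the correction. OAS2, a sensor of double-stranded RNA, was at 63.2, 66.7 and 94.9 CPM. ISG15, a ubiquitin-like protein, ran the other way at 24.6, 14.9 and 13.6 CPM, as did IFI6 (18.0, 11.3 and 10.3 CPM) and IFI44L (19.5, 15.3 and 11.0 CPM). MX1 and TRIM22 did not pass the test. CXCL9 was not tested, with at most 0.452 TPM, and CXCL10 was at 0.215, 0.308 and 0.759 CPM.

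Promoter letters are shown for 2 pairs of genes that share a motif and whose CPM ran in opposite directions. RefSeq promoters on GRCh38.p14 matched 27 of the 38 interferon genes by symbol. The interferon response element core, searched on both strands as GAAA, any 2 bases and GAAA again, in the 250 bases before the start, was in 20 of these 27, and in 3.02% of all 35116 promoters. Of 19 tested genes with it, 12 were highest in M_766 and 7 in M_770, and of 7 without it, 1 was highest in M_766 and 5 in M_770. Over all 16949 tested genes 6718 were highest in M_766 and 5813 in M_770. A link between motif and tumour was not tested. The motif was thus present in genes highest in either tumour. EPSTI1, at 50.1, 59.7 and 72.4 CPM, and IFI6 are printed on the minus strand of chr13:42992272-42992491 and chr1:27672219-27672442, up to the first base that GENCODE 29 places in an exon, with the matches in capitals.
EPSTI1: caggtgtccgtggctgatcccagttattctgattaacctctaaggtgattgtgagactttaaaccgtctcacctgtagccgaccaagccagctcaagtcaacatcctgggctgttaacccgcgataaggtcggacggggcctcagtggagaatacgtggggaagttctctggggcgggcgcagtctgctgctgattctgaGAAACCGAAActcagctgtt
IFI6: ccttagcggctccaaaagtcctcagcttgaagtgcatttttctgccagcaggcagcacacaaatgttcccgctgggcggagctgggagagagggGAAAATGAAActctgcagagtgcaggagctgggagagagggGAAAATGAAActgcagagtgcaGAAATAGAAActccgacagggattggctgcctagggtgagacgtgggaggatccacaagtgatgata
EPSTI1 has a single match and IFI6 has 3.

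The cyclic AMP response element, searched as TGACGTCA, which reads the same on both strands, was in 4 of 25 stress genes with a promoter and in 1.65% of all promoters. DUSP1, a phosphatase of MAP kinases, was at 32.6, 65.9 and 49.8 CPM, lowest in M_766, and JUND highest there, though without an excess once length and GC were corrected (0.02). Both hold the element once, on the minus strand of chr5:172771196-172771445 and chr19:18281623-18281872, in capitals below.
DUSP1: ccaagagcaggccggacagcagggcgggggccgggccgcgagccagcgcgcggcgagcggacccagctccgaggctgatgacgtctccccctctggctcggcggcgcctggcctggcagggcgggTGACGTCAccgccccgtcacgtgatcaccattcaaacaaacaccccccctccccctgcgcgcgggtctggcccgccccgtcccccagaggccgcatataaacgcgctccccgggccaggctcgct
JUND: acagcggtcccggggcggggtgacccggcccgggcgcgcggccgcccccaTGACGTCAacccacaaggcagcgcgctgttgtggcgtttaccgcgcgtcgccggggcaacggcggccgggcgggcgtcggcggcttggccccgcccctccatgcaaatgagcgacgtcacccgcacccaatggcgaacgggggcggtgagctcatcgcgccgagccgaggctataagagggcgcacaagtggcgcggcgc
A match describes letters and not binding.

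The 25 genes of largest SD between tumours, among 10860 genes at a mean of 5 CPM or more, were chosen by that SD and are described without a test. In 15 M_770 was highest and in 8 M_766, and in 22 M_769 lay between the other 2. SLFN12L, of the Schlafen family, was at 2.28, 5.37 and 11.1 CPM, and FRY, a large scaffold protein of mitosis, at 17.4, 38.5 and 73.6 CPM. AIM2, a cytosolic DNA sensor, was at 12.3, 21.2 and 42.4 CPM, RHOB, a stress-induced small GTPase, at 21.5, 48.7 and 73.4 CPM, and SLC16A3, a lactate exporter, at 6.11, 6.94 and 17.8 CPM. In the other direction, HTRA3, a secreted serine protease, was at 41.7, 24.1 and 10.1 CPM, SERINC2 at 31.4, 19.6 and 8.35 CPM, and ADGRB2, an adhesion G-protein-coupled receptor, at 16.7, 10.9 and 4.61 CPM. Libraries of M_766 and M_770 did not overlap in any of these 8 genes, which their choice by SD makes likely. The share of all tested genes without such overlap was not counted. REL, FOSB and HSPA1B are also among the 25. PRKXP1 and GVINP1 are pseudogenes, and the noncoding genes AL035696.4, VLDLR-AS1, LINC01226 and AC112907.3 complete the noncoding members. Strandedness of the counting is not given, so reads of an antisense gene and of its partner cannot be told apart. SLC16A3, near the end of the 25, had an SD of 0.84, and RPRML, the first outside, had 0.83, so the boundary separates near-equal values. With length and GC corrected, 21 of the 25 remained among as many of largest SD.

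Single libraries decided 2 of these. BOLA2B was at 35.3 CPM in library B of M_769 and 34.6 CPM in library A of M_770, and at 0.673 to 1.14 CPM in the other 7 libraries. EIF3CL was at 29.9 CPM in library C of M_766 and at 4.44 to 7.41 CPM elsewhere. Both have a near-identical copy, BOLA2 and EIF3C, so how reads were shared between copies is uncertain. Summed with BOLA2, which held 19, 17 and 13 counts, BOLA2B came to 1.14, 13.7 and 13.3 CPM of all counts, so the difference remained in the sum. Summed with EIF3C, EIF3CL came to 36.7, 27.6 and 33.6 CPM of all counts. U2AF1L5, a copy of U2AF1 just outside the 25, ranged from 13.5 to 86.7 CPM among the libraries of M_769 alone. HSPA1B stayed low in M_766 when summed with its copy HSPA1A, at 25.4, 91.5 and 84.8 CPM of all counts.

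**Figure D5:**
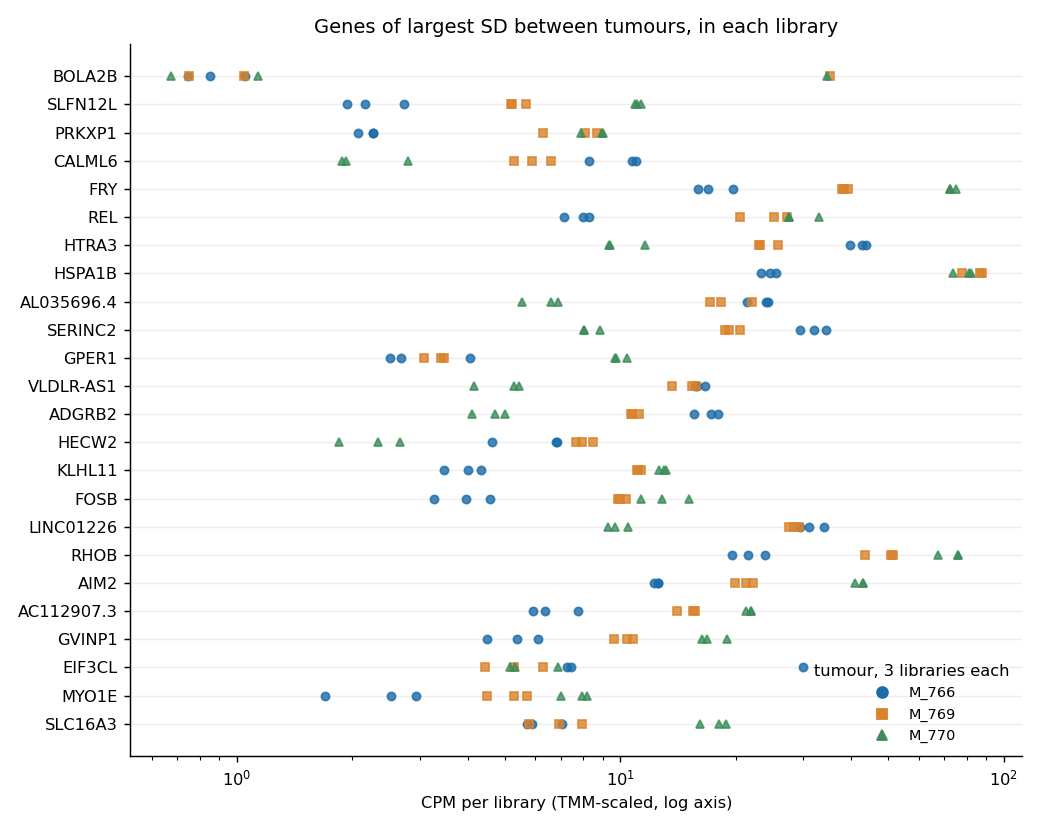
CPM in each of the 9 libraries (log axis) for the 24 genes of largest SD between tumours, 3 points per tumour. For FRY the libraries of M_766 lay at 15.9 to 19.6, of M_769 at 37.9 to 39.2 and of M_770 at 72.2 to 74.9 CPM, whereas BOLA2B was high in 2 single libraries.

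The ranking of genes by spread was partly repeatable. With 1 library per tumour, all of the same letter, the 100 genes of largest SD shared 55, 61 and 62 members between letters A and B, A and C, and B and C. Across 10861 genes the SDs of 2 letters had Spearman coefficients of 0.595, 0.642 and 0.660, a description across genes that share the same 3 tumours.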

How the data were processed

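Bulk RNA of sorted OCI-Ly18 tumour cells was sequenced from NEB NEXT Ultra II libraries, per the labels' protocols. The authors deposited whole-number read counts per gene for 58735 genes, with gene lengths, and the values carry no normalization. The submitters' processing notes name hg38 and DESeq2 without versions. The aligner, counter, strandedness and treatment of multi-mapping reads: not given in the sources used here. Start, end and length of all 58735 genes matched GENCODE 29, the length being the union of a gene's exons, which lowers the TPM of genes with many isoforms.

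Libraries were grouped by treatment label and summed by the mouse in the title, with 17676638 to 24935347 counts per library. No column of per-sample values lacked a sample. The 9 libraries were tested in edgeR 4.0.16 (R 4.3.3) with mouse as a factor, TMM factors, filterByExpr at 10 counts, the quasi-likelihood F test and Benjamini-Hochberg adjustment at 0.05, leaving 16949 genes. Genes removed held 0.149% of counts. Log2 values used a prior count of 2. Libraries of a tumour differed beyond sampling noise in all 9 pairs (chi-square per degree of freedom 2.06 to 4.81), so none was a repeat deposit. The code was tested on simulated data. Alternatives used limma 3.58.1 (voom) and DESeq2 1.42.0. Intervals and floors cover counting error alone.

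Named genes were 28 set genes, up to 8 of each list by mean TPM, up to 4 by SD at 1 CPM or more, lineage and oncogene members under 1 TPM, the 20 highest genes by TPM and by counts, the 25 of largest SD at 5 CPM or more, and leading immunoglobulin genes; others are named to describe a list. The lists, members and this rule were chosen with earlier results of these data known. A few genes of the lists and of this rule are not reported here. Sequences come from RefSeq (GRCh38.p14) and GENCODE 29.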

Additional observations from a re-analysis of the deposited data

How the results depend on the processing

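The count of genes that differed between tumours, 9184, was 8390 to 9207 under the other settings that kept all 3 tumours and 9 libraries, which were other normalization, other filters, voom, DESeq2, and length and GC correction. With the library letter as a replicate block it was 8902. Deviations of same-letter libraries from their tumour mean correlated at -0.0041 on average, against 0.0021 for different letters. No shared shift by letter was seen, but this cannot show what the letters mean. Without mouse M_766 it was 3698, a count with fewer samples. Leaving out 1 library gave 8446 to 9021. The same gave 3591 to 4012 genes higher and 3805 to 4221 lower in M_766, 1289 to 2092 higher and 1073 to 1755 lower in M_769, and 2932 to 3488 higher and 2436 to 3067 lower in M_770. The M_769 counts fell by over 1.5 times without its first library (1289 and 1073) or its last (library C, 1296 and 1093), and the cause was not tested. Genes at 1 TPM in all tumours numbered 15955 to 16048 and the median SD was 0.18 to 0.19 without 1 library. With other units or minimums the number was 13734 (median transcript length), 13737 (1 CPM), 16696 (no mitochondrial genes) and 18466 (0.5 TPM), against 16093. The share of counts in the 100 highest genes was 23.6% to 23.8% without 1 library, and 21.0% instead of 23.7% without mitochondrial genes, by construction. Of 400 refits of set genes 395 kept their call and 4 lost it (MYC and EZH2, as given above). All statements rest on 3 tumours of 1 line, each with CART19 cells.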

Other observations

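Of 55 values examined over the 9 libraries (depth, shares of gene classes, list levels and set genes), none had a single library far from the other 8 by Dixon's criterion.

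Mitochondrial transcripts did not keep a fixed ratio between tumours. MT-ND4L, which shares bases with MT-ND4, was at 342, 677 and 780 CPM and MT-ND5 at 1370, 1884 and 2388 CPM in M_766, M_769 and M_770, while MT-CO1 was at 12191, 11738 and 12395 CPM and MT-CO2, highest in M_766, at 5960, 4127 and 4428 CPM. All are subunits of respiratory complexes read from 1 genome.

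COL1A2, a collagen gene in the fibroblast list, was at 1.12, 3.25 and 4.52 CPM, lowest in M_766, while COL3A1 had no count and COL1A1 stayed below 0.1 TPM.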
